A study of Mus musculus with 12 samples.

Results

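Angptl4, the 3 peroxisome proliferator-activated receptors (PPARs), their coactivator Ppargc1a and 4 of their classical target genes were followed in endothelial cells of mouse mesentery and epididymal fat. The 9 genes are Angptl4, Pparg, Ppard, Ppara, Ppargc1a, Pdk4, Plin2, Cpt1a and Acadvl, out of 27825 genes in the deposited table. They were chosen by name as a pathway after Angptl4 had stood out in the diet comparison of the mesentery, so their values in that comparison are given as a description, without a test. All 9 passed the filter on low values, a mean of at least 10 normalized counts over the 12 libraries, as did 22238 genes in all.

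PPARs are nuclear receptors that bind fatty acids and, as partners of retinoid X receptors, switch on genes for the uptake, storage and oxidation of fat. Pparg is best known as the regulator of fat cell formation and is also active in capillary endothelium of fat, Ppara drives fat oxidation in liver, and Ppard is widely expressed. Angptl4 is a secreted protein that inactivates lipoprotein lipase, the enzyme that frees fatty acids from circulating triglycerides at the vessel wall, and PPARs induce it.

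The RNA came from sorted cells of male ROSA26-eYFP+/+ Cdh5-CreERT2+ mice. In this genotype a tamoxifen-activated Cre recombinase, expressed from the endothelial gene Cdh5, switches on a yellow fluorescent protein in cells that use Cdh5 at that time and in their descendants. Mice of every group ate a tamoxifen diet from week 6 of age for 2 weeks, and from week 8 either normal chow (NC, 5.8% fat) or a high fat diet (HFD, 60% fat) for 12 to 13 weeks. Mesentery (Mes), the fold of tissue that suspends the intestine, or epididymal fat pads (Epi) of 6 mice were pooled for each sample, and actinomycin D, which blocks transcription, was present in the buffers for dissection and digestion. The 12 libraries form 4 groups of 3: NC Mes, HFD Mes, NC Epi and HFD Epi, lettered A to C. The protocol counts 2 independent replicates, but titles carry 3 letters and descriptions carry numbers from 50 to 53 (8 libraries) or 87 and 88 (NC Mes C, NC Epi C, HFD Mes A and HFD Epi A). How these relate is not stated, so every p-value below measures only the spread between these libraries, which may be technical.

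Library totals ran from 8348897 to 25397963 reads, and 3 reads, taken as the limit of detection, were worth 2.12 to 4.22 normalized counts. The endothelial markers Cdh5 and Pecam1 were present in every library, but markers of other cells were too. The 12 endothelial markers summed to between 114677 and 187260 normalized counts in mesentery and between 41185 and 88635 in epididymal fat. Pancreatic acinar markers summed to 26732 or more in each mesentery library and to 553 or less in each epididymal library. Normalized counts are corrected for library size and not for gene length, so levels are compared between libraries and not between genes. In such pooled material, fewer cells of a type and less RNA per cell cannot be told apart.

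**Figure D1:**
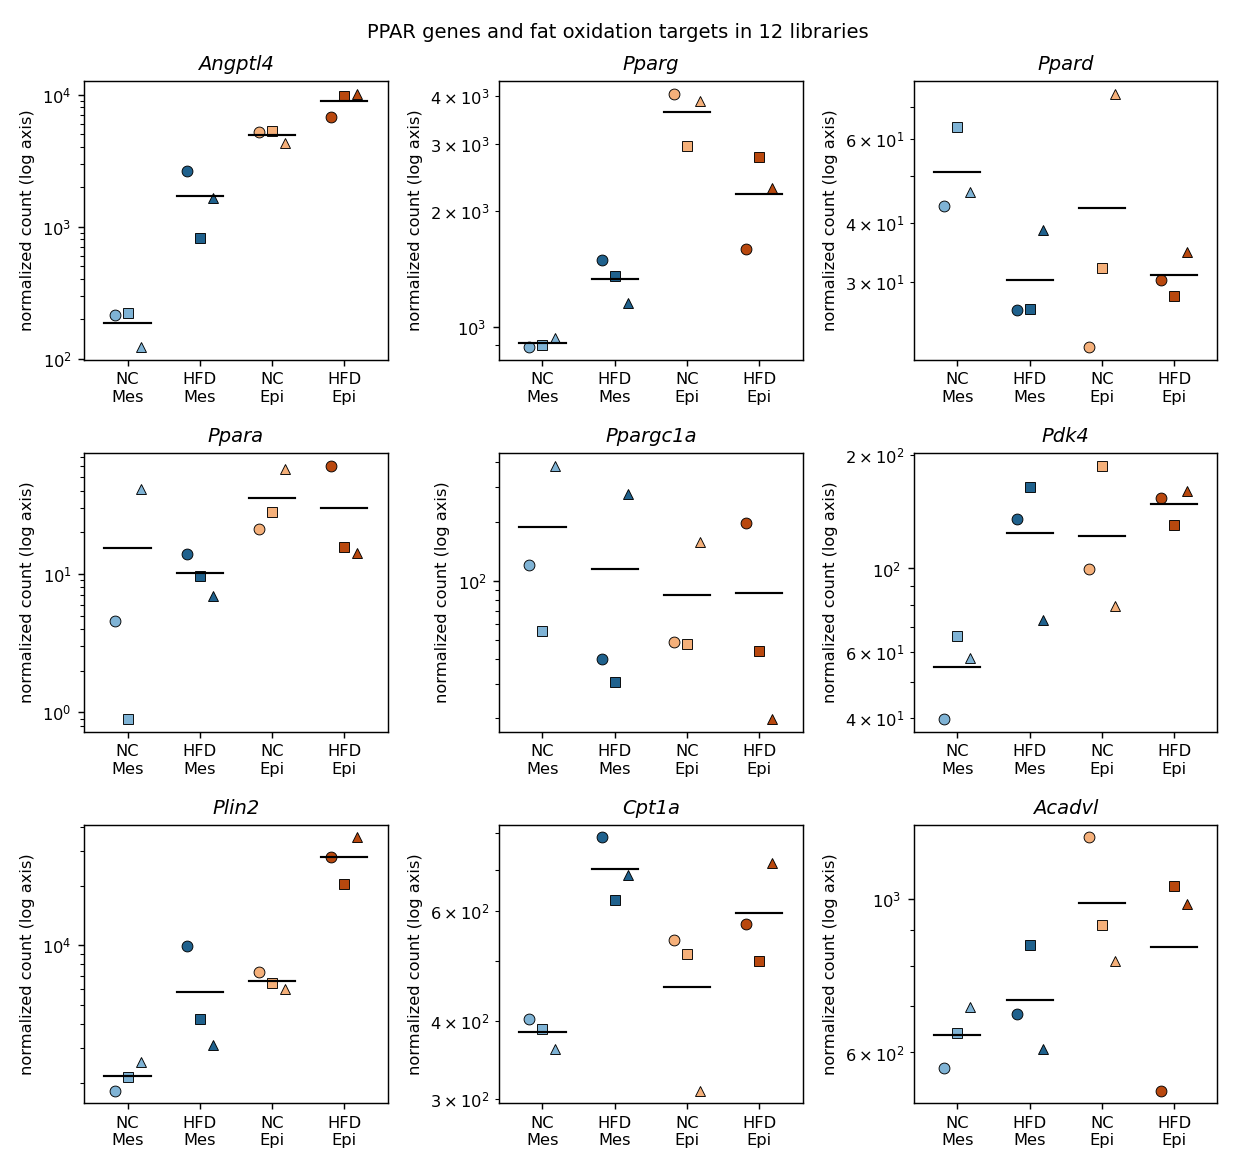
Normalized counts (log axis) of the 9 genes in the 4 groups; each symbol is a library (circle A, square B, triangle C) and each bar a group mean of 3. Angptl4 and Plin2 are lowest in NC Mes and highest in HFD Epi, Pparg is highest in NC Epi, and Ppara and Ppargc1a spread widely within groups.

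Angptl4 was the member with the widest range between groups. In mesentery on chow its libraries held 215, 222 and 122 normalized counts (187 ± 55.7, SD, n = 3). On HFD they held 2624, 820.5 and 1650.1 (1698 ± 903, SD, n = 3). All 3 HFD Mes libraries lay above all 3 NC Mes libraries, with means 9.10-fold apart. On the log2(normalized count + 1) scale the difference was 3.07 ± 0.355 (SE), as a description. HFD Mes B, the lowest of the diet libraries, was still above NC Mes B, the highest on chow. The size of the difference varied with the libraries used. It was 2.41 (log2) among the libraries numbered 50 to 53 and 4.41 between the single libraries numbered 88 and 87. By rank of log2 difference Angptl4 was the 128th highest of 22238 genes, in the comparison that brought it to notice.

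In epididymal fat Angptl4 started from a higher level. The NC Epi libraries held 5184, 5296 and 4267 normalized counts (4916 ± 565, SD, n = 3), and the HFD Epi libraries 6786, 9813 and 10151 (8917 ± 1853, SD, n = 3). Here too the diet groups did not overlap, with the means 1.81-fold apart. The log2 difference of 0.84 ± 0.355 (SE) did not pass the test (limma, Benjamini-Hochberg adjusted p = 0.598), nor in any of 23 alternative analyses, whose adjusted p ranged from 0.218 to 1.

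The 4 groups thus stood in 1 order for Angptl4, NC Mes, HFD Mes, NC Epi and HFD Epi, and no neighbouring groups overlapped. Between tissues on chow the log2 difference was 4.75 ± 0.355 (SE), with means 26.3-fold apart, the 117th highest of all genes tested. On HFD it was 2.52 ± 0.355 (SE), with means 5.25-fold apart. Both are descriptions, since they share the mesentery libraries in which the gene was noticed. Within the libraries that carry the same number, epididymal fat was above mesentery by 4.58, 4.57 and 5.11 (log2) on chow for numbers 50, 51 and 87. On HFD the same differences were 3.58, 2.62 and 1.37 for numbers 52, 53 and 88, each smaller than any difference on chow and smallest for number 88.

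Adipocyte marker sums followed the tissue order of Angptl4 for chow libraries only. On HFD the sums of the tissues overlapped, while the Angptl4 values did not. Among epididymal libraries the sums were lower on HFD, where Angptl4 was higher. The 12 adipocyte markers, whose own cells also make Angptl4, summed to 13649 to 15263 normalized counts in NC Mes, 9997 to 16718 in HFD Mes, 82619 to 101335 in NC Epi and 5884 to 18250 in HFD Epi. These sums rest largely on few genes. The marker Cfd averaged 50379 of a mean sum of 90601 in NC Epi, and 1161 in HFD Epi. In NC Mes the marker Thrsp held 8543 to 10539. Lep averaged 1002 in NC Epi and 1009 in HFD Epi, though by sign of the log2 difference all 12 markers were lower in HFD Epi. No defining adipocyte marker was at 0 in HFD Mes or in either epididymal group, and Adrb3 and Pck1 were at 0 in 1 NC Mes library each. For diet in mesentery 9 of the 12 were higher by sign, with a median log2 difference of 0.75, and 4 were higher and 2 lower without overlap. Lep, the fat cell hormone leptin, was the 1 called higher by limma, with 23.3 to 49.0 normalized counts in NC Mes and 256 to 974 in HFD Mes. Macrophage marker sums ran with Angptl4 between group means. They averaged 3675 in NC Mes, 15597 in HFD Mes, 33451 in NC Epi and 221196 in HFD Epi. Unlike the Angptl4 values, these sums overlapped between NC Mes and HFD Mes and between HFD Mes and NC Epi. The part of adipocytes or macrophages in the Angptl4 values was not tested.

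The rest of the Angptl4 and lipoprotein lipase axis gave a tissue difference and no diet call in limma. This list held 15 genes for angiopoietin-like proteins, lipoprotein lipase and its partners, of which 11 passed the filter on low values. In limma 0 of 11 were called for diet in mesentery and 0 of 11 in epididymal fat, with 1 and 3 at an unadjusted p under 0.05, edgeR calling 0 and 0 and DESeq2 1 and 1. Between tissues on chow limma called 3 of 11 higher in epididymal fat and 0 lower, where 12.8% of all genes were called. The count of the list was 2 in edgeR and 4 in DESeq2, and ran from 2 to 4 with libraries left out in turn. The 3 were Angptl2, another member of the family, Lpl, lipoprotein lipase itself, and Lipg, the endothelial lipase. Lipg held 2.28, 0 and 36.6 normalized counts in NC Mes and 203, 64.3 and 39.8 in NC Epi (limma adjusted p = 0.0489). Lpl was at 1052 ± 446 (SD, n = 3) in NC Mes and 16055 ± 2023 (SD, n = 3) in NC Epi, a log2 difference of 4.0 ± 0.472 (SE; limma adjusted p = 0.000128). On HFD Lpl averaged 2151 ± 1313 (SD, n = 3) in mesentery and 35610.5 ± 11781 (SD, n = 3) in epididymal fat, a difference of 4.25 ± 0.472 (SE; limma adjusted p = 0.000112). The diet differences of Lpl itself were 0.85 (log2) in mesentery and 1.09 in epididymal fat. Neither passed the adjusted threshold (limma adjusted p = 0.881 and 0.627). The diet groups of Lpl overlapped in mesentery, and in epididymal fat HFD lay above chow without overlap. Gpihbp1, the endothelial protein that anchors lipoprotein lipase to the capillary wall, averaged 33307 in NC Mes, 27162 in HFD Mes, 67676 in NC Epi and 47255 in HFD Epi, and its diet groups overlapped in each tissue.

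Pparg was the receptor with the clearest pattern, and its diet groups stood in opposite order in the tissues. In mesentery the chow libraries held 887, 899 and 935 normalized counts (907 ± 24.9, SD, n = 3) and the high fat libraries 1494, 1361 and 1158 (1338 ± 169, SD, n = 3). In epididymal fat the chow libraries held 4047, 2953 and 3880 (3627 ± 589, SD, n = 3) and the high fat libraries 1601, 2765 and 2307 (2224 ± 586, SD, n = 3). So every HFD Mes library was above every NC Mes library, and every HFD Epi library below every NC Epi library. The mesentery difference was 0.55 ± 0.208 (SE) on the log2 scale, as a description. The epididymal difference of -0.73 ± 0.208 (SE) did not pass the test (limma adjusted p = 0.200) and passed in 1 of 23 alternatives, DESeq2 on recovered reads (adjusted p = 0.0296). HFD Epi B and NC Epi B lay close together, at 2765 and 2953.

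The tissue difference of Pparg on chow was the firmest of the receptors. Pparg was higher in NC Epi than in NC Mes by 1.99 ± 0.208 (SE) on the log2 scale, with means 4.0-fold apart (limma adjusted p = 5.18e-05), and passed in 23 of 23 alternatives. Between the tissues on HFD the groups still did not overlap, but the difference was 0.71 ± 0.208 (SE; limma adjusted p = 0.0538). It passed the threshold in 6 of 23 alternatives, among them the fits without HFD Epi A (0.92, limma adjusted p = 0.0117) and without NC Mes C (0.71, limma adjusted p = 0.0494). Number by number the differences were 2.19, 1.72 and 2.05 (log2) on chow and 1.02, 0.99 and 0.10 on HFD, the last for number 88, whose epididymal library is HFD Epi A.

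Adipocyte markers ran with Pparg between the diet groups of epididymal fat, but not library by library within NC Epi. There the marker sum was highest in B (101335), where Pparg was lowest (2953). Within HFD Epi the orders were the same. Adipoq, the fat cell hormone adiponectin, averaged 6544 ± 940 normalized counts (SD, n = 3) in NC Epi and 1186 ± 718 (SD, n = 3) in HFD Epi, lower by 2.65 ± 0.398 (SE) on the log2 scale (limma adjusted p = 0.00944). Of the 12 adipocyte markers, 4 were called lower in HFD Epi and 0 higher, and the sign was lower for all 12. In mesentery, where Pparg was also higher on HFD, 9 of 12 were higher by sign and limma called 1 (Lep), a call lost without NC Mes B, HFD Mes A, HFD Mes C, NC Epi A or NC Epi B. The part of these cells in the Pparg values was not tested.

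Ppard and Ppara gave low counts. Ppard held 43.3, 63.6 and 46.5 normalized counts in NC Mes and 26.2, 26.3 and 38.5 in HFD Mes, so the diet libraries lay below chow without overlap, by 0.74 ± 0.555 (SE) on the log2 scale, as a description. In epididymal fat its values of 21.9, 32.1 and 74.6 on chow and 30.4, 28.1 and 34.7 on HFD overlapped, with a log2 difference of -0.27 (limma adjusted p = 1). The tissue differences of Ppard were -0.41 on chow and 0.05 on HFD (limma adjusted p = 0.710 and 0.985), the last of which changed sign when the columns were rescaled to the same total.

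Ppara, the receptor of liver fat oxidation, was counted from few reads. The NC Mes libraries held 4, 1 and 29 reads and the HFD Mes libraries 15, 7 and 7. NC Epi had 27, 32 and 56 and HFD Epi 54, 19 and 20. In normalized counts NC Mes spanned 0.896 to 40.8, which took in all of HFD Mes at 6.92 to 14.0. Only between the tissues on HFD did the groups not overlap, with HFD Epi at 14.2 to 60.7 just above the highest HFD Mes value of 14.0 (log2 difference 1.21 ± 1.09, SE; limma adjusted p = 0.647). On chow the tissue difference was 2.13 ± 1.09 (SE; limma adjusted p = 0.251), and it rose to 3.36 and passed the test without NC Mes C (limma adjusted p = 0.0340) and to 2.96 among numbers 50 to 53 (limma adjusted p = 0.0479).

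The coactivator Ppargc1a, which drives mitochondrial biogenesis and fat oxidation with the PPARs, varied widely within groups. Its libraries held 121, 55.6 and 386 normalized counts in NC Mes and 40.2, 30.5 and 275 in HFD Mes. In epididymal fat they held 48.6, 47.8 and 157 on chow and 196, 43.8 and 19.8 on HFD. Each group had 1 library well above the others (NC Mes C, HFD Mes C, NC Epi C and HFD Epi A), and all comparisons overlapped. None of the tested differences passed (limma adjusted p = 1 for diet in epididymal fat, 0.618 for tissue on chow and 0.928 for tissue on HFD). Among its relatives, of 11 genes tested from a list of the other PGC-1 family members and mitochondrial transcription factors, limma, edgeR and DESeq2 each called 0 for diet in mesentery, diet in epididymal fat and either tissue comparison, with 0, 0, 1 and 1 at an unadjusted p under 0.05.

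Reads in olfactory and vomeronasal receptor genes, which these tissues are not known to use, were highest in the libraries highest in Ppargc1a. Over 663 such genes they made up 103 to 3073 CPM (reads scaled to the library total). The 4 libraries with the highest share, NC Mes C (3073), HFD Epi A (2072), NC Epi C (1934) and HFD Mes C (1915), were the 4 libraries with the highest Ppargc1a, and the 5th by share, NC Mes A (939), was also the 5th by Ppargc1a. Of those 4 libraries, HFD Epi A, NC Epi C and NC Mes C were also the 3 highest for Ppara, while HFD Mes C was 10th of 12 (6.92). By Ppard the same 4 libraries ranked 3rd (NC Mes C), 8th (HFD Epi A), 1st (NC Epi C) and 5th (HFD Mes C). After the first 5 libraries by share the order of Ppargc1a differed. HFD Mes A, 6th by share, was 10th by Ppargc1a, and NC Epi A, 12th by share, was 7th. The part of such reads in these genes was not tested.

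**Figure D2:**
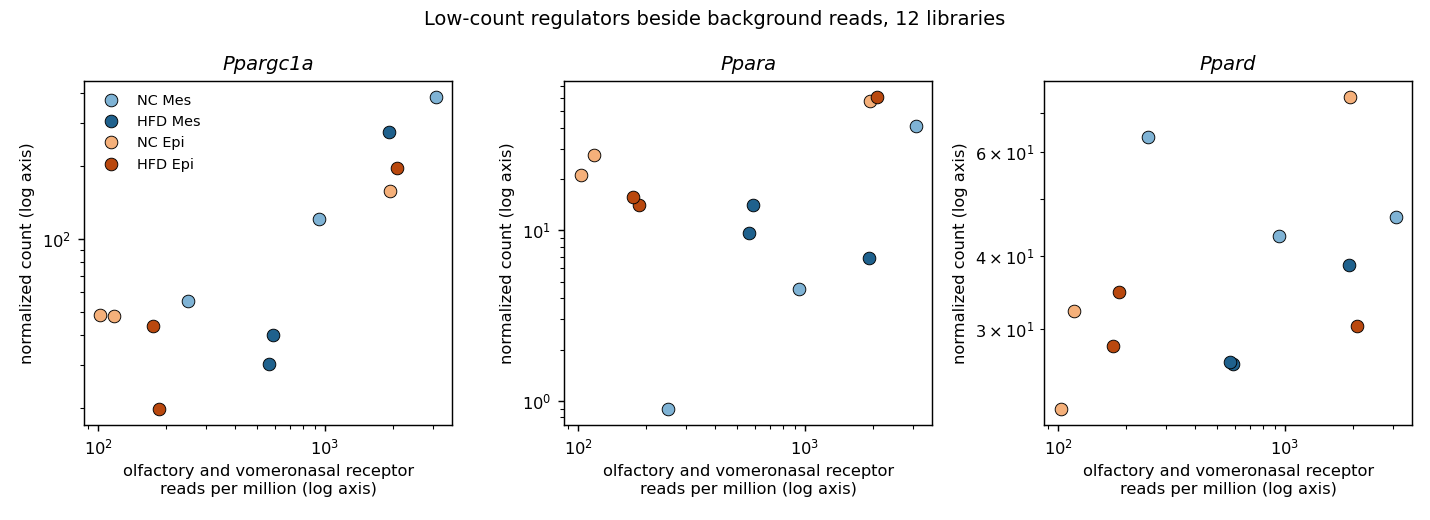
Normalized counts (log axis) of Ppargc1a, Ppara and Ppard against reads per library total (CPM) in 663 olfactory and vomeronasal receptor genes (log axis); each point is a library, coloured by group. Ppargc1a is highest in the 4 libraries at 1915 CPM or more, which come from all 4 groups.

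The partners of the receptors gave calls between tissues and none for diet. Of 13 genes for retinoid X receptors and coregulators, limma, edgeR and DESeq2 each called 0 for diet in either tissue, with 2 at an unadjusted p under 0.05 in mesentery and 1 in epididymal fat. On chow, where 12.8% of all genes were called, 3 of 13 were called lower in epididymal fat than in mesentery and 0 higher. These were the coactivators Ncoa2 (-1.41 ± 0.242, SE, log2; limma adjusted p = 0.00199), Ep300 (-0.99) and Ncoa3 (-0.84). The count fell to 1 when NC Mes A, NC Epi A, NC Epi B, NC Epi C or HFD Epi B was left out. The median of the list on chow was -0.46 (log2) beside -0.08 over all genes tested. Between tissues on HFD limma called 1 of 13, Prdm16, lower in epididymal fat, beside 8.34% of all genes. Its log2 difference was -0.94 ± 0.261 (SE; limma adjusted p = 0.0417). The HFD count was 0 in edgeR and 3 in DESeq2, and ran from 0 to 1 with libraries left out in turn.

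Plin2, which coats lipid droplets, was the target with a diet change in the tested comparison. In epididymal fat its chow libraries held 7317, 6426 and 6001 normalized counts (6581 ± 672, SD, n = 3) and its high fat libraries 28082.5, 20548 and 35341 (27991 ± 7397, SD, n = 3). Every HFD Epi library was more than any NC Epi library, with means 4.25-fold apart. The log2 difference of 2.06 ± 0.351 (SE) passed the test (limma adjusted p = 0.0193). Plin2 was the only member of 9 to pass there, where 0.549% of all genes were called. The call was lost in 6 of 23 alternatives, at differences from 1.87 to 2.14: with columns rescaled to the same total (adjusted p = 0.0556), in edgeR (0.0772) and in limma without NC Epi A (0.0838), NC Epi C (0.0697), HFD Epi A (0.0777) or HFD Epi C (0.141).

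In mesentery Plin2 held 1829, 2138 and 2547 normalized counts on chow and 9975, 4247 and 3110 on HFD. The groups did not overlap, with means 2.66-fold apart and a log2 difference of 1.24 ± 0.351 (SE), as a description. HFD Mes A lay far above the other HFD Mes libraries. Plin2 also differed between tissues: it was higher in epididymal fat by 1.61 ± 0.351 (SE) on chow and by 2.42 ± 0.351 (SE) on HFD (limma adjusted p = 0.00882 and 0.000900), and both passed in 23 of 23 alternatives. Plin2 and Angptl4 were the 2 of 9 members above chow without overlap in both tissues, a pattern that 0.751% of all genes showed. This count holds the mesentery comparison that brought the genes to notice, so nothing is read from it.

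Macrophage markers ran with Plin2 between group means, but not library by library within NC Epi or HFD Mes. The 12 markers summed to 1596 to 7714 normalized counts in NC Mes, 4486 to 24540 in HFD Mes, 5965 to 84245 in NC Epi and 135251 to 339266 in HFD Epi. HFD Epi thus had the highest Plin2 and the highest macrophage sum. Within HFD Mes the orders differed, with Plin2 highest in A and lowest in C and the macrophage sum highest in C and lowest in B. Within NC Epi the macrophage sum was 10143, 84245 and 5965 in A, B and C, where Plin2 was 7317, 6426 and 6001. Within NC Mes and within HFD Epi the orders were the same. Cd68, a lysosomal protein of macrophages, was at 325 to 2154 in NC Epi and 12006 to 26841 in HFD Epi. Of 12 macrophage markers 10 were above chow without overlap in epididymal fat and 1 was called (Trem2, a receptor of lipid-laden macrophages), a call lost without NC Epi A, NC Epi C, HFD Epi A or HFD Epi C. The count rose to 6 without NC Epi B, which held the highest sum on chow, and to 3 without NC Mes C or HFD Mes B. Adgre1 was at 0 in 1 NC Mes library and Itgax in 2, and no macrophage marker was at 0 in the epididymal groups. The part of these cells in the Plin2 values was not tested.

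**Figure D3:**
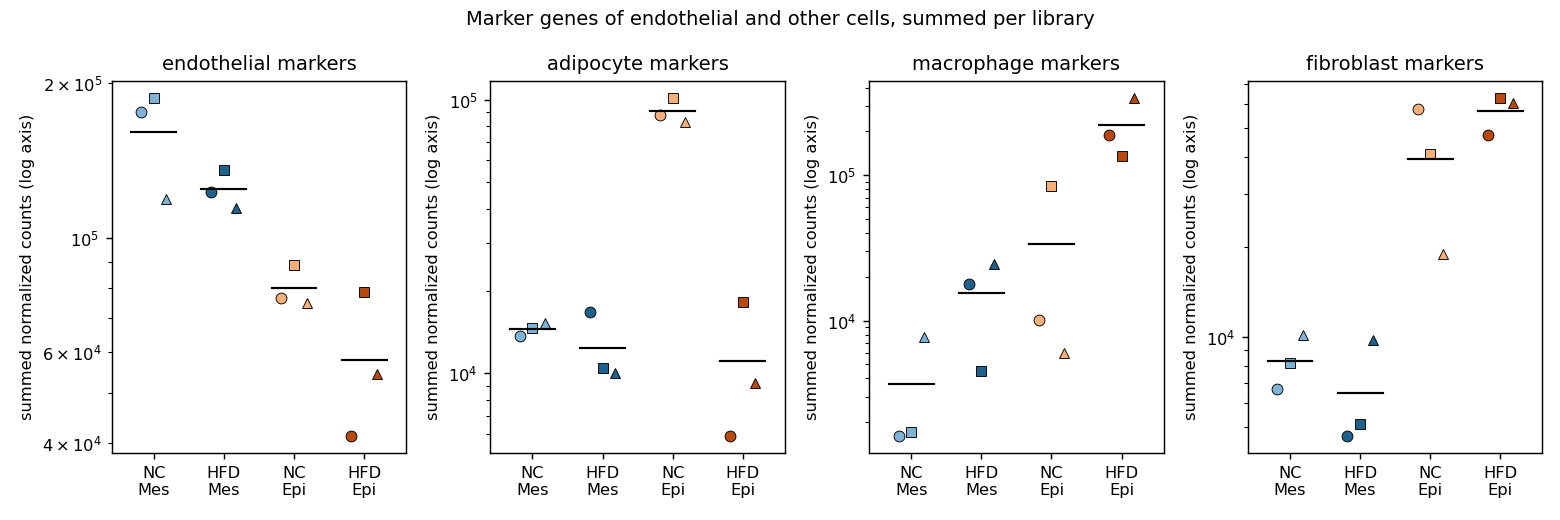
Summed normalized counts (log axis) of endothelial, adipocyte, macrophage and fibroblast markers in the 4 groups; each symbol is a library (circle A, square B, triangle C) and each bar a group mean of 3. Adipocyte markers are high in NC Epi at 82619 to 101335, and macrophage markers are high in HFD Epi at 135251 to 339266.

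Pdk4 and Cpt1a are switches from glucose to fat: Pdk4 blocks pyruvate dehydrogenase, and Cpt1a loads long-chain fatty acids for entry into mitochondria. In mesentery Pdk4 held 39.9, 66.3 and 57.7 normalized counts on chow and 136, 165 and 73.1 on HFD, 2.28-fold apart in the means and without overlap. HFD Mes C came close to NC Mes B. Cpt1a held 403, 389 and 360.4 on chow and 788, 626 and 687 on HFD, 1.82-fold apart and well separated. The log2 differences were 1.13 ± 0.407 (SE) for Pdk4 and 0.86 ± 0.227 (SE) for Cpt1a, as descriptions.

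In epididymal fat neither gene passed the test for diet. Pdk4 held 99.5, 188 and 79.7 on chow and 154, 130.5 and 161 on HFD, a log2 difference of 0.37 ± 0.407 (SE; limma adjusted p = 1). Cpt1a held 540, 513 and 309 on chow and 573, 499.6 and 718 on HFD, a log2 difference of 0.42 ± 0.227 (SE; limma adjusted p = 0.870). The diet groups overlapped for both. Between tissues on chow Pdk4 was higher in epididymal fat without overlap, by 1.08 ± 0.407 (SE), which missed the threshold (limma adjusted p = 0.107), and Cpt1a overlapped (0.20 ± 0.227, SE; limma adjusted p = 0.651).

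Acadvl, the first dehydrogenase of long-chain beta-oxidation, had overlapping diet groups in both tissues. Its mesentery values were 570.5, 641 and 698 on chow and 681, 858 and 607 on HFD, which overlapped. Its epididymal values were 1226, 917 and 813 on chow and 528, 1045 and 984 on HFD, which also overlapped (log2 difference -0.25 ± 0.258, SE; limma adjusted p = 1). On chow epididymal fat was above mesentery without overlap by 0.61 ± 0.258 (SE; limma adjusted p = 0.152), a difference that passed among numbers 50 to 53 (0.81, limma adjusted p = 0.0312). Exons of Acadvl overlap those of Dvl2 on the opposite strand, and the strand setting of the counting is not given in the sources used here, so some reads assigned to Acadvl may belong to Dvl2.

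**Figure D4:**
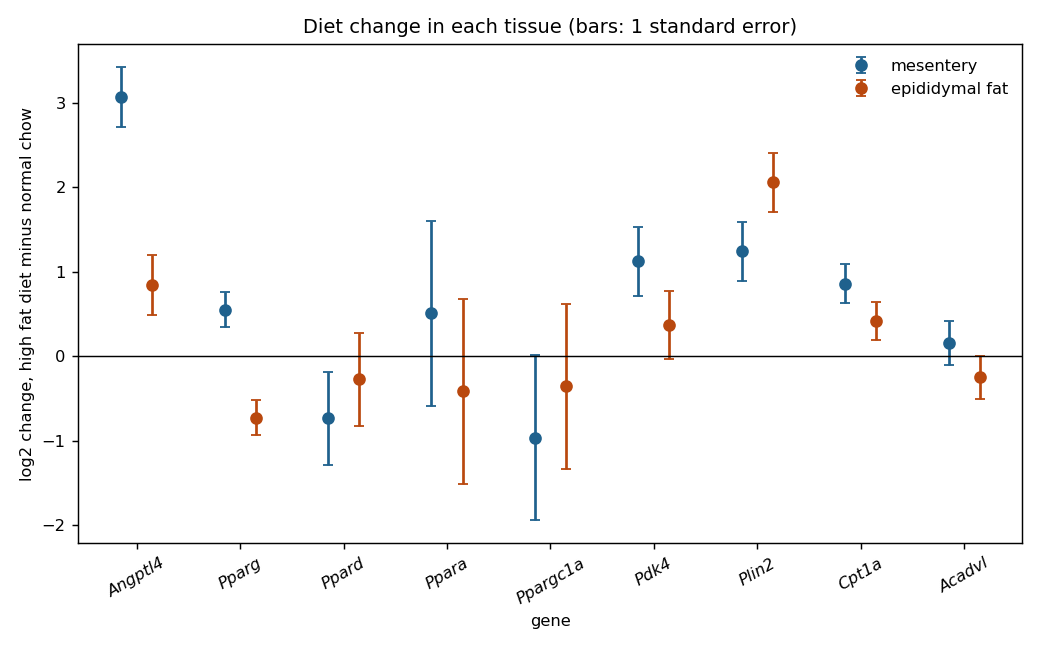
Log2 difference between high fat diet and chow for each of the 9 genes in mesentery and in epididymal fat; points are limma estimates from 3 libraries per group and bars 1 standard error. Angptl4 has the highest mesentery value (3.07) and Plin2 the highest epididymal value (2.06), and Pparg lies above 0 in mesentery (0.55) and below 0 in epididymal fat (-0.73).

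Over the members as a list, the high fat libraries of the mesentery lay above chow without overlap for 5 of 9 (Angptl4, Pparg, Pdk4, Plin2 and Cpt1a), where 4.47% of all genes did, and below for 1 (Ppard), where 5.14% did. By limma 3 genes in all (0.0135%) were called there, while edgeR on recovered reads called no gene higher. Members were not tested there. The counts of members belong to the comparison that brought the genes to notice, and nothing is read from them. In epididymal fat 2 of 9 lay above (Angptl4 and Plin2; 6.93% of all genes) and 1 below (Pparg; 6.57%). Between tissues on chow 5 of 9 were higher in epididymal fat without overlap (Angptl4, Pparg, Pdk4, Plin2 and Acadvl; 16.0% of all genes). Of the 8 members other than Angptl4, 2 were called (Pparg and Plin2; 12.8% of all genes were called). On HFD 4 of 9 were higher without overlap (Angptl4, Pparg, Ppara and Plin2; 15.1%), and of the 8 members other than Angptl4 only Plin2 was called (8.34% of all genes).

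The difference of the diet change between the tissues (epididymal minus mesentery) is also a description, since it holds the mesentery comparison. It was -2.23 ± 0.502 (SE, log2) for Angptl4, -1.28 ± 0.294 for Pparg and 0.82 ± 0.496 for Plin2. Among numbers 50 to 53 it was -1.48 for Angptl4 and -0.94 for Pparg, and Plin2 ran from 0.46 without HFD Mes C to 1.30 without HFD Mes A. For the other 6 members it lay between -0.93 and 0.61. By limma 1 gene in all (0.00450%) passed for it, and members were not tested.

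The promoters of 3 targets that were higher in HFD Mes are shown because PPARs with their partners bind a direct repeat of the 6-base motif AGGTCA. The windows cover 200 bases, from 250 to 51 bases before the gene start, in RefSeq's table on build GRCm38.p6, which is not the build mm39 of the counts. They are written 5′ to 3′ on the strand of the gene, and a match to AGGTCA, or to TGACCT on the other strand, is in capitals. Plin2 lies at chr4:86670110-86670309 on the minus strand, Cpt1a at chr19:3323051-3323250 on the plus strand and Pdk4 at chr6:5496329-5496528 on the minus strand. No annotated exon overlaps these windows, and that of Cpt1a lies in an intron of a longer Cpt1a transcript.
Plin2: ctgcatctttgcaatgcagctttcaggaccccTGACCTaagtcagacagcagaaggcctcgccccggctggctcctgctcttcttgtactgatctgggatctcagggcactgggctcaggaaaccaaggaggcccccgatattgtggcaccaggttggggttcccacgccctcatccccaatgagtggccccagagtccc
Cpt1a: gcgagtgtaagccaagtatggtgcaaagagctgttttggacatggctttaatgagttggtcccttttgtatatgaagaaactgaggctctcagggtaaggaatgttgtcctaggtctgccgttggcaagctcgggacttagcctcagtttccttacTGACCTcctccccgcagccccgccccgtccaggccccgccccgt
Pdk4: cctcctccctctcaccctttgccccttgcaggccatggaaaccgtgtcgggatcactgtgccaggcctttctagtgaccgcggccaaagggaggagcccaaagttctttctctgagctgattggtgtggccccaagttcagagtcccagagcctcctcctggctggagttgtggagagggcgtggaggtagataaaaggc
Plin2 and Cpt1a each held 1 match, TGACCT, starting 218 and 94 bases before the gene start, and Pdk4 held none. Of the 10 windows of 8 members, 3 held a match (also Acadvl), and 11.4% of 32851 windows of the same length in the table did. The spaced repeat AGGTCANAGGTCA was in no member's window and in 0.0244% of all windows. These matches describe the letters of the windows and not binding.

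Other PPAR targets were taken from a textbook list of 30 genes, of which 27 passed the filter. In mesentery 0 of 27 were called for diet in limma, with 9 at an unadjusted p under 0.05, and edgeR called 0 and DESeq2 7. Their median log2 difference was 0.81, beside -0.00 over all genes, and 24 of 27 were higher by sign. For 8 of 27 the HFD Mes libraries lay above chow without overlap and for 0 below, beside 4.47% and 5.14% of all genes. In the same comparison 12 of 12 macrophage markers (median 2.09) and 9 of 12 adipocyte markers (median 0.75) were higher by sign, and their part in the list was not tested. Among the 8 targets above chow without overlap, named after their values were seen, were Cd36, Ucp2, Plin4, Cidec, Slc25a20, Hilpda and Cat. Of the genes named here, Cidec is also in the adipocyte marker list. Cd36, a fatty acid transporter of endothelium, averaged 21138 ± 3906 (SD, n = 3) in NC Mes and 38103 ± 4154 (SD, n = 3) in HFD Mes.

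In epididymal fat the same list split. Of 27 targets 3 lay above chow without overlap (Lpl, Ucp2 and Hilpda), beside 6.93% of all genes. Below chow lay 7 (Ehhadh, Plin1, Plin4, Cidec, Cat, Acaa1b and Adipoq), beside 6.57% of all genes. The only call in limma was Adipoq, lower as given above, and it was lost without NC Epi A or HFD Epi C and in edgeR, whereas without HFD Epi B there were 2 calls. The median was -0.15 beside 0.10 over all genes. Plin1 and Cidec, which coat the lipid droplet of fat cells, and Adipoq are also in the adipocyte marker list, whose values are given with Pparg. Plin1 averaged 899 ± 103 (SD, n = 3) in NC Epi and 279 ± 133 (SD, n = 3) in HFD Epi.

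Between the tissues on chow 14 of 27 targets were called higher in epididymal fat and 0 lower, where 12.8% of all genes were called. The median of the list was 1.45 (log2) beside -0.08 over all genes. Lpl (4.0), Plin4 (3.67) and Adipoq (3.57) led by size. The count ran from 11 to 15 when libraries were left out in turn. On HFD, where 8.34% of all genes were called, 3 of 27 were called higher and 0 lower. These were Lpl (4.25), Ucp2 (1.66), an uncoupling protein of the inner mitochondrial membrane, and Cd36 (1.64). The count fell to 1 without HFD Epi C and was 8 among numbers 50 to 53. Adipocyte markers were higher in NC Epi than in NC Mes for 9 of 12 by limma, and 1 of 12 was called on HFD, lower in HFD Epi.

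**Figure D5:**
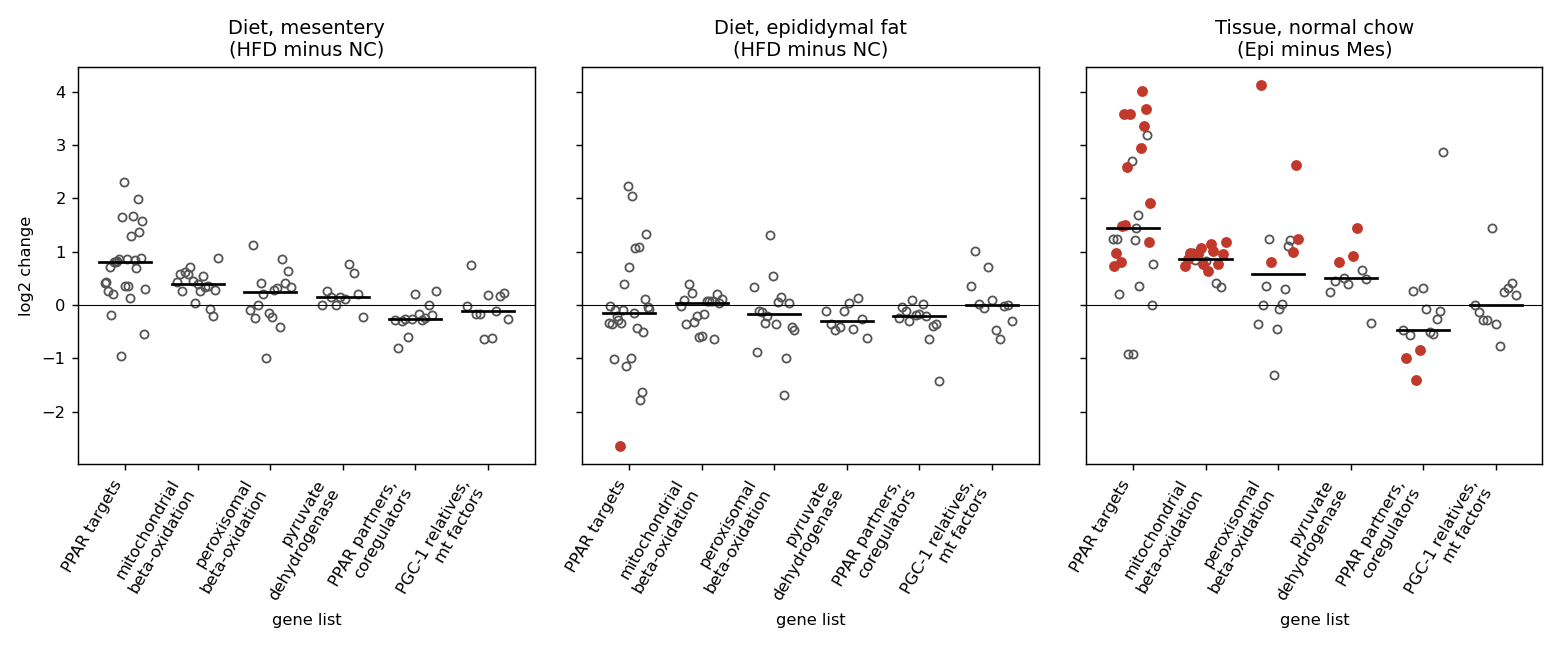
Log2 differences of the genes of 6 pathway lists for diet in mesentery, diet in epididymal fat and tissue on chow; each point is a gene, filled where limma's adjusted p passed 0.05, and each bar a list median. Calls are nearly all in the tissue panel, with 14 of 27 PPAR targets and 12 of 17 mitochondrial enzymes higher in epididymal fat.

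The enzymes that follow Cpt1a in mitochondrial beta-oxidation were higher in epididymal fat as a group on chow. Of 17 tested, of which Slc25a20, Acadm and Acaa2 are also in the PPAR target list, 12 were called higher and 0 lower, with a median of 0.86 (log2) beside -0.08 over all genes, of which 12.8% were called. Markers of other cells were called higher in the same comparison, namely 9 of 12 for adipocytes, 7 of 8 for fibroblasts, 6 of 8 for smooth muscle and pericytes and 5 of 5 for red blood cells, and their part was not tested. Slc25a20, the carnitine carrier, was higher by 1.18, Etfa, which passes electrons to the respiratory chain, by 1.14 and Decr1, which handles unsaturated chains, by 1.07. The count was 7 without NC Mes A, the library with the highest share of mitochondrial reads (20.6%, against 2.50% in NC Epi A). On HFD, where 8.34% of all genes were called, 2 of 17 were called, both higher. These were Hadha (0.75) and Hadhb (0.71), the subunits of the trifunctional protein. The call of 1 or both was lost without HFD Mes A, HFD Mes B, HFD Mes C, HFD Epi B or HFD Epi C, where 1, 0, 1, 0 and 0 remained called.

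For diet in mesentery 0 of 17 mitochondrial enzymes were called in limma, with 5 at an unadjusted p under 0.05, and edgeR called 0 and DESeq2 2. The median was 0.40 and 15 of 17 were higher by sign. Without overlap 6 of 17 were higher (Cpt2, Slc25a20, Acadl, Hadhb, Decr1 and Etfa, named after their values were seen) and 0 lower, beside 4.47% and 5.14% of all genes. Macrophage and adipocyte markers were higher by sign here as given above, and their part was not tested. Cpt2, the inner-membrane partner of Cpt1a, averaged 265 ± 40.7 (SD, n = 3) on chow and 431 ± 39.8 (SD, n = 3) on HFD. In epididymal fat limma called 0 of 17 for diet, with 3 at an unadjusted p under 0.05, and edgeR called 0 and DESeq2 2. There 1 was higher and 4 were lower without overlap, beside 6.93% and 6.57% of all genes. The median of the list was 0.03.

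Peroxisomal enzymes and the pyruvate dehydrogenase complex gave the same tissue order with fewer calls. On chow, where 12.8% of all genes were called, 5 of 16 peroxisomal genes were called higher in epididymal fat and 0 lower. They were led by Abcd2 (4.13), a fatty acid transporter of the peroxisome, Pex11a (2.63), which divides peroxisomes, and Scp2 (1.24). Between tissues on HFD limma called 2 of 16, Abcd2 (2.13) and Pex11a (1.58), both higher in epididymal fat, beside 8.34% of all genes. That count was 0 in edgeR and 3 in DESeq2, and ran from 0 to 3 with libraries left out in turn. For diet limma, edgeR and DESeq2 each called 0 of 16 in either tissue, with 1 and 4 at an unadjusted p under 0.05. The list of pyruvate dehydrogenase, its other kinases and its phosphatases held 10 genes. On chow 3 of them were called higher in epididymal fat and 0 lower, beside 12.8% of all genes. These were Pdk2 (1.44), Pdk1 (0.92) and Pdha1 (0.80). This count was 1 without NC Mes A or NC Epi B. For tissue on HFD limma called 1 of 10, Pdk1 (0.83), higher in epididymal fat, beside 8.34% of all genes. The HFD count was 0 in edgeR and 1 in DESeq2, and ran from 0 to 1 with libraries left out in turn. Pdk2, a kinase of the same family as Pdk4, averaged 223 ± 59.8 (SD, n = 3) in NC Mes and 596 ± 57.1 (SD, n = 3) in NC Epi. For diet limma, edgeR and DESeq2 each called 0 of 10 in either tissue, with 2 in mesentery and 1 in epididymal fat at an unadjusted p under 0.05.

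Angptl4 and Pdk4 also respond to low oxygen and to glucocorticoids, so lists for both were read. Of 14 hypoxia genes limma and edgeR called 0 for diet in either tissue, with 3 and 3 at an unadjusted p under 0.05, and DESeq2 called 0 and 1. Without NC Mes C limma called 1 in mesentery. In mesentery 6 were higher and 8 lower by sign, with a median of -0.08. Without overlap 1 (Bnip3, a mitophagy receptor) was higher and 2 were lower, beside 4.47% and 5.14% of all genes. Between tissues on chow Adm (3.88) and Bnip3 (2.01) were higher in epididymal fat and Kdm3a (-0.70) lower, and the list had 6 calls without NC Mes C. For tissue on HFD limma called 2 of 14, Adm (2.08) and Ldha (0.77), both higher in epididymal fat, beside 8.34% of all genes. That count was 0 in edgeR and 4 in DESeq2, and ran from 0 to 2 with libraries left out in turn. Of 10 glucocorticoid genes limma and edgeR called 0 for diet in either tissue, with 2 and 3 at an unadjusted p under 0.05, and DESeq2 called 0 and 2. Between tissues on chow Errfi1, an inhibitor of epidermal growth factor receptor signalling, was higher in epididymal fat (2.01) and Sgk1, a serum- and glucocorticoid-induced kinase, lower (-2.10). For tissue on HFD limma called 2 of 10 higher in epididymal fat and 2 lower, beside 8.34% of all genes. Among them were Errfi1 (1.14), Sgk1 (-1.11) and Tsc22d3 (-0.95). The calls numbered 1 in edgeR and 4 in DESeq2, and ran from 1 to 4 with libraries left out in turn.

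The genes most like the leading members over the 12 libraries were ranked by Pearson correlation of log2(normalized count + 1) among 9943 genes. These libraries share 4 groups, so any gene with the same group order ranks high. For Angptl4 they were Msra (0.974), Nrep (0.967), C1qtnf1 (0.966) and Ergic1 (0.965). Msra, which repairs oxidized methionine, held 231 to 249 normalized counts in NC Mes, 306 to 502 in HFD Mes, 578 to 636 in NC Epi and 782 to 880.5 in HFD Epi, the group order of Angptl4 over a narrower range. For Pparg they were G0s2 (0.977), Sfxn1 (0.975), Gstt2 (0.970) and Kcnj8 (0.969). G0s2, an inhibitor of fat breakdown, held 111 to 329.5 in NC Mes, 335 to 552 in HFD Mes, 2515 to 3776 in NC Epi and 696 to 1463 in HFD Epi, so it too was above chow in mesentery and below chow in epididymal fat. For Pdk4 the values were lower: Aagab (0.845), Vps26a (0.833), Vwa5a (0.832) and Rilpl2 (0.830).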

How the data were processed

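Bulk RNA-seq of sorted cells was deposited by the authors as normalized counts, a signal per gene that is never negative. Per the submitters' processing notes, STAR 2.7.9a, featureCounts of Subread and DESeq2 1.34.0 were used with build mm39; the annotation, gene filter and strand setting are not given in the sources used here. Within each library 100% of values were whole multiples of what 1 read is worth (tolerance 1e-06), so whole reads were recovered for the alternatives, and library totals are sums of those reads.

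Groups came from the sample titles. log2(normalized count + 1) of the 22238 genes with a mean of at least 10 was fitted with limma 3.58.1 (R 4.3.3, 4 group means over all 12 libraries, trend in eBayes), and p-values were adjusted by Benjamini-Hochberg over all genes within a contrast, with a threshold of 0.05. The log2 differences understate changes of genes with few reads. Alternatives were other pseudocounts and filters, columns rescaled to the same total, edgeR 4.0.16 and DESeq2 1.42.0 on recovered reads, the number range, a replicate block, only the compared groups, and each library left out. The limma step was tested on simulated data. Genes of a list were named where they passed the threshold, averaged at least 100 normalized counts in the higher group and were among the 3 with the widest difference in a direction; Trem2, Gpihbp1, Bnip3 in mesentery, Cpt2, Plin1, Cd36 in mesentery and other list genes outside this rule were chosen after their values were seen. Members and lists were chosen with earlier results of these data known. Promoter windows were matched to 8 of 9 members by symbol, and motifs were searched on both strands. No gene coordinates are given for the counts, since the annotation used here is of another build.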

Additional observations from a re-analysis of the deposited data

Results flagged for a closer look

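Pparg was picked out because its diet groups did not overlap in either tissue and lay in opposite directions: every HFD Mes library was above every NC Mes library, and every HFD Epi library was below every NC Epi library. The difference between the diet changes (epididymal fat minus mesentery) was -1.28 on the log2 scale. As the mesentery comparison brought these genes to notice, this difference was not tested. It was -1.56 with columns rescaled to the same total and -0.94 among the libraries numbered 50 to 53.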

How the results depend on the processing

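Library depth limits Ppara, with as few as 1 read in a library, and 3 libraries per group limit every test. With the columns rescaled to the same total the median log2 difference of all genes moved from -0.00 to 0.13 for diet in mesentery, from 0.10 to -0.04 for diet in epididymal fat, from -0.08 to 0.01 for tissue on chow and from 0.06 to -0.12 for tissue on HFD, and calls split as 67 higher and 38 lower (93 and 29 in the main analysis) for diet in epididymal fat, 1947 and 947 (1627 and 1216) for tissue on chow and 703 and 1286 (1092 and 762) for tissue on HFD.

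Genes called for diet in epididymal fat numbered 122, and 29 in edgeR, 546 in DESeq2 and 31 among numbers 50 to 53 (23 to 176 with libraries left out in turn; 23 without HFD Epi C, 43 without HFD Epi A, 45 without NC Epi A and 51 without NC Epi C). For diet in mesentery they numbered 3, and 7 with a mean of at least 50, 1 in edgeR, 154 in DESeq2, 20 among numbers 50 to 53 and 1 with only the compared groups (1 to 37; 37 without NC Mes C, 6 without HFD Mes B or NC Epi C, 5 without NC Mes A and 1 without HFD Mes C). For tissue on chow they numbered 2843, and 4349 among numbers 50 to 53 (1516 to 3278; 1516 without NC Epi B, 1523 without NC Epi A and 1659 without NC Mes A). For tissue on HFD they numbered 1854, and 1021 in edgeR and 2931 in DESeq2 (728 to 2508; 728 without HFD Epi C, 815 without HFD Mes B and 1194 without HFD Mes A). For the difference between tissues they numbered 1, and 3 with a mean of at least 50, 133 in DESeq2, 11 among numbers 50 to 53 and 2 with the replicate block (1 to 20; 20 without NC Mes C, 10 without HFD Epi B, 4 without HFD Mes C and 2 without NC Epi A). Of 9 members 1 was called for diet in epididymal fat, and 0 after rescaling, 0 in edgeR and 2 in DESeq2 (0 to 1). Of 8 members 2 were called for tissue on chow, and 4 among numbers 50 to 53. For tissue on HFD 1 of 8 was called, and 2 each with a mean of at least 50, in DESeq2, with the number range as a covariate and among numbers 50 to 53 (1 to 2). The cause was not tested.

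Signs of tested differences that did not pass changed as follows. Ppard for diet in epididymal fat was 0.22 among numbers 50 to 53 (-0.65 to 0.21 with libraries left out), and for tissue on HFD -0.13 after rescaling and -0.029 among numbers 50 to 53 (-0.042 to 0.23). Ppargc1a for diet in epididymal fat was 0.031 in DESeq2 (-1.25 to 0.37), and for tissue on HFD ran from -1.22 to 0.66 with libraries left out. Pdk4 for tissue on HFD ran from -0.017 to 0.56 and Acadvl for diet in epididymal fat from -0.43 to 0.063. Signs also changed among differences given without a test. Over all alternatives Ppara for diet in mesentery ran from -0.58 to 1.74 and Ppargc1a from -1.94 to 0.17. The difference of the diet change between tissues ran from -2.17 to 0.35 for Ppara and from -0.86 to 1.59 for Ppargc1a. Of 1016 recomputed differences of members, 979 kept their sign and side of the threshold or, where no test was made, moved by less than 1 SD.

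Letters are shared across diets and numbers across tissues, and nothing says that they mark the same mice. Deviations of same-numbered chow libraries correlated at 0.38 on average (lowest 0.03), against -0.18 for different numbers. Those of same-numbered HFD libraries correlated at -0.04, against 0.02. Same-lettered libraries correlated at 0.00 in mesentery and -0.30 in epididymal fat. Same-numbered libraries thus deviated together on chow and not on HFD. Neither numbers nor letters were taken as pairing in the main fit. Epididymal libraries of the same number range (50 to 53, or 87 and 88) correlated across diets at 0.58 (0.44 to 0.84), against -0.65 for different ranges, and mesenteric ones at 0.01. With a replicate block the calls numbered 104 for diet in epididymal fat, 4 for diet in mesentery, 2816 for tissue on chow and 1890 for tissue on HFD.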
